A study of Mus musculus with 12 samples.

Results

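Smooth muscle contractile genes were read in the colon of a mouse model of ulcerative colitis (UC). The 10 genes, Acta2, Myh11, Des, Tagln, Cnn1, Actg2, Lmod1, Smtn, Myocd and Kcnmb1, were taken by symbol from the deposited table of normalized colon counts, where each symbol matched 1 gene, so that 10 of 32689 genes of the table are members. They were read in each of the 6 colon libraries as a measure of how much of the muscle layer the tissue piece held. Colon and whole blood of 6 wild-type C57BL/6 male mice had been profiled by total RNA-Seq. The mice were 8 weeks old when obtained, and the 3 of each group had been selected by their disease activity index. Mice 1, 2 and 4 are labelled UC. By the protocol, UC mice received 1.5% (wt/vol) dextran sulfate sodium (DSS) in their drinking water over 7 days. DSS is a sulfated polysaccharide that injures the gut epithelium. Mice 7, 8 and 9 are labelled control, and by the protocol control mice had the same water free of DSS. Which mouse drank DSS is known here only through its label. The protocol has all animals killed on day 8. Each colon was homogenized with steel beads without separation of mucosa and muscle in the stated protocol, so each library mixes the cells of the wall in unknown shares. In such a sample, fewer muscle cells and less of these RNAs per muscle cell cannot be told apart.

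The colon libraries held 69181049 to 103662306 counts, and the 3 libraries labelled UC had the highest totals and the lowest shares of 7SL RNA (4.90% to 4.92%, against 5.27% to 6.50%), so that depth and disease label cannot be told apart. Markers of inflammation went against the disease labels. S100a8, a neutrophil and monocyte calcium-binding protein, had 5370, 33.1 and 22.3 normalized counts in mice 1, 2 and 4 (labelled UC), and 1888, 75.6 and 13337 in mice 7, 8 and 9 (labelled control). Lcn2, an iron-sequestering protein of inflamed epithelium, had 1248, 96.7 and 99.8 against 1208, 117 and 9155. Both were high in mice 1, 7 and 9, that is, in 1 library labelled UC and 2 labelled control. The deposited normalized tables list the mice in the order 1, 7, 9, 2, 4 and 8, and no label says what that order means. The 5 inflammatory genes read below split the mice as that order does. Relative to its mean over the 6 libraries, their list stood at 8.74, 3.73 and 31.7 in mice 1, 7 and 9. In mice 2, 4 and 8 it stood at 0.0710, 0.0835 and 0.163. Whether some disease labels were exchanged was not tested, so a difference between the labelled groups is not read here as an effect of DSS. The groups below are therefore called labelled UC and labelled control, no library was moved, and each member is given library by library.

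Visceral smooth muscle shortens when actin thin filaments slide along thick filaments of myosin, after calcium has entered the cytosol and, through calmodulin, switched on the kinase that phosphorylates the myosin light chain. Calponin, transgelin, smoothelin and leiomodin are thin filament proteins, and desmin intermediate filaments tie the contractile units together and to the cell membrane. Transcription of most of these genes is known to depend on serum response factor, which binds a short element called the CArG box, and on its coactivator myocardin. In the colon the genes are made mainly by the circular and longitudinal muscle and the muscularis mucosae, and some of them also by the muscle of blood vessels, pericytes and myofibroblasts.

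Since the members share this known control, the sequence just before their start sites was read from RefSeq (GRCm38.p6), which held a promoter window for 6 of the 10 members, namely Des, Lmod1, Cnn1, Smtn, Kcnmb1 and Acta2. Myh11, Tagln, Actg2 and Myocd had no entry. The 250 bases before the start, 5′ to 3′ on the strand of the gene, are shown for Acta2 (chr19:34255374-34255623, minus strand), the only one of the 6 with a match, for Des (chr1:75360042-75360291, plus strand) and Cnn1 (chr9:22099003-22099252, plus strand), whose levels followed the other members most closely, and for Kcnmb1 (chr11:33962763-33963012, plus strand), whose levels followed them least. Capitals mark CArG boxes with up to 1 mismatch among their 6 A or T positions.
Acta2: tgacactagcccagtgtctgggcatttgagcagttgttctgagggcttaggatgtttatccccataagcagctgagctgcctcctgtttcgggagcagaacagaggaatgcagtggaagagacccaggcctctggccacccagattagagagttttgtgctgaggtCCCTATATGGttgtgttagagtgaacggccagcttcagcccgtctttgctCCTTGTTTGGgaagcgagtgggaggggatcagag
Des: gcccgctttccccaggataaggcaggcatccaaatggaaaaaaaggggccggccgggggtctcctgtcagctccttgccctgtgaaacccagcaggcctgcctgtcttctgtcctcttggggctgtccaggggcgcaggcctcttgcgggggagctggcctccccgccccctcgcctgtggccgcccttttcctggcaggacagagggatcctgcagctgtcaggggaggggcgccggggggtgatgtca
Cnn1: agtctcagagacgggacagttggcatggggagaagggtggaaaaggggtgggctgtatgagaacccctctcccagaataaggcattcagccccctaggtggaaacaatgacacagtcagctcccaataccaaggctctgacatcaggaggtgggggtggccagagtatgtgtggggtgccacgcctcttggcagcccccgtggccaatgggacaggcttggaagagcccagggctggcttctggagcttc
Kcnmb1: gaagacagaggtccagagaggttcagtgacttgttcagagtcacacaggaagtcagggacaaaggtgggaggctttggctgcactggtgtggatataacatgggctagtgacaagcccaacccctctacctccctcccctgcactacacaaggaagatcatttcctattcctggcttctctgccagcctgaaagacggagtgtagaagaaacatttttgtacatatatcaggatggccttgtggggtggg
A perfect CArG box, searched on both strands (the element reads the same on each) and within the 250 bases before and 50 bases after the start, was found in 0 of the 6 members, beside 1.63% of all 32851 windows. With 1 mismatch allowed, 1 of 6 members had a match, beside 9.98% of all windows. Acta2 held both of these boxes, CCCTATATGG beginning 84 bases and CCTTGTTTGG beginning 34 bases before the start. These are matches of letters in a short window and do not show where a factor binds.

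The contractile filaments are built from actin and myosin. Acta2 (ENSMUSG00000035783, chr19:34241090-34255590), the smooth muscle alpha-actin, had 41753, 94404 and 65007 normalized counts in mice 1, 2 and 4 (labelled UC, in this order here and below), against 50480, 56304 and 24515 in mice 7, 8 and 9 (labelled control). Actg2 (ENSMUSG00000059430, chr6:83512905-83536265), the gamma-actin that marks enteric smooth muscle, had 19237, 55689 and 43587 against 27046, 29114 and 8445. Myh11 (ENSMUSG00000018830, chr16:14194535-14291372), the smooth muscle myosin heavy chain, had 91426, 186120 and 133009 against 138768, 137192 and 38540. All 3 genes were highest in mouse 2 and lowest in mouse 9, and the labelled groups overlapped. Actg2 spanned the widest range of all members, 6.59-fold from the lowest to the highest library, while Myh11 spanned 4.83-fold and Acta2 3.85-fold. Actin genes are similar in sequence, but only 7 of 1986 windows of 50 bases in Acta2 transcripts (0.352%, all matching Actg1) and 0 of 1284 in Actg2 were identical to another actin transcript.

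Among the thin filament proteins, Tagln (ENSMUSG00000032085, chr9:45929619-45936058), which encodes transgelin or SM22, had 31921, 85729 and 71716 normalized counts against 66489, 58682 and 27364. Cnn1 (ENSMUSG00000001349, chr9:22099216-22109630), basic calponin, an inhibitor of the actomyosin ATPase, had 14952, 38578 and 32761 against 24657, 22696 and 9025. Both had their lowest level in mouse 9, and mouse 1 was the next lowest. Smtn (ENSMUSG00000020439, chr11:3517523-3540612), smoothelin, had 5690, 11265 and 9566 against 8201, 9886 and 3686. Lmod1 (ENSMUSG00000048096, chr1:135324807-135368065), a leiomodin that nucleates actin filaments, had 3036, 3779 and 3779 against 3065, 3340 and 1621. Lmod1 stood apart from the others in that mouse 1 was close to mice 7 and 8, so that mouse 9 alone was low. Des (ENSMUSG00000026208, chr1:75360329-75368579), the intermediate filament protein desmin, had 29400, 74156 and 63459 against 54573, 46896 and 20212. Its order of libraries, from mouse 2 through 4, 7, 8 and 1 to mouse 9, was also the order of the geometric mean of all members.

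The remaining members are a regulator and a channel subunit, and they followed another order. Myocd (ENSMUSG00000020542, chr11:65176561-65269989), the coactivator myocardin, had 470, 806 and 619 normalized counts against 1086, 730 and 452. It was highest in mouse 7, not in mouse 2. Kcnmb1 (ENSMUSG00000020155, chr11:33963013-33973641), the beta subunit that tunes the large-conductance calcium-activated potassium channel of smooth muscle, had 331, 789 and 618 against 651, 600 and 507. It was lowest in mouse 1, and mouse 9 was the next lowest. In all 10 members the 2 labelled groups overlapped.

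**Figure D1:**
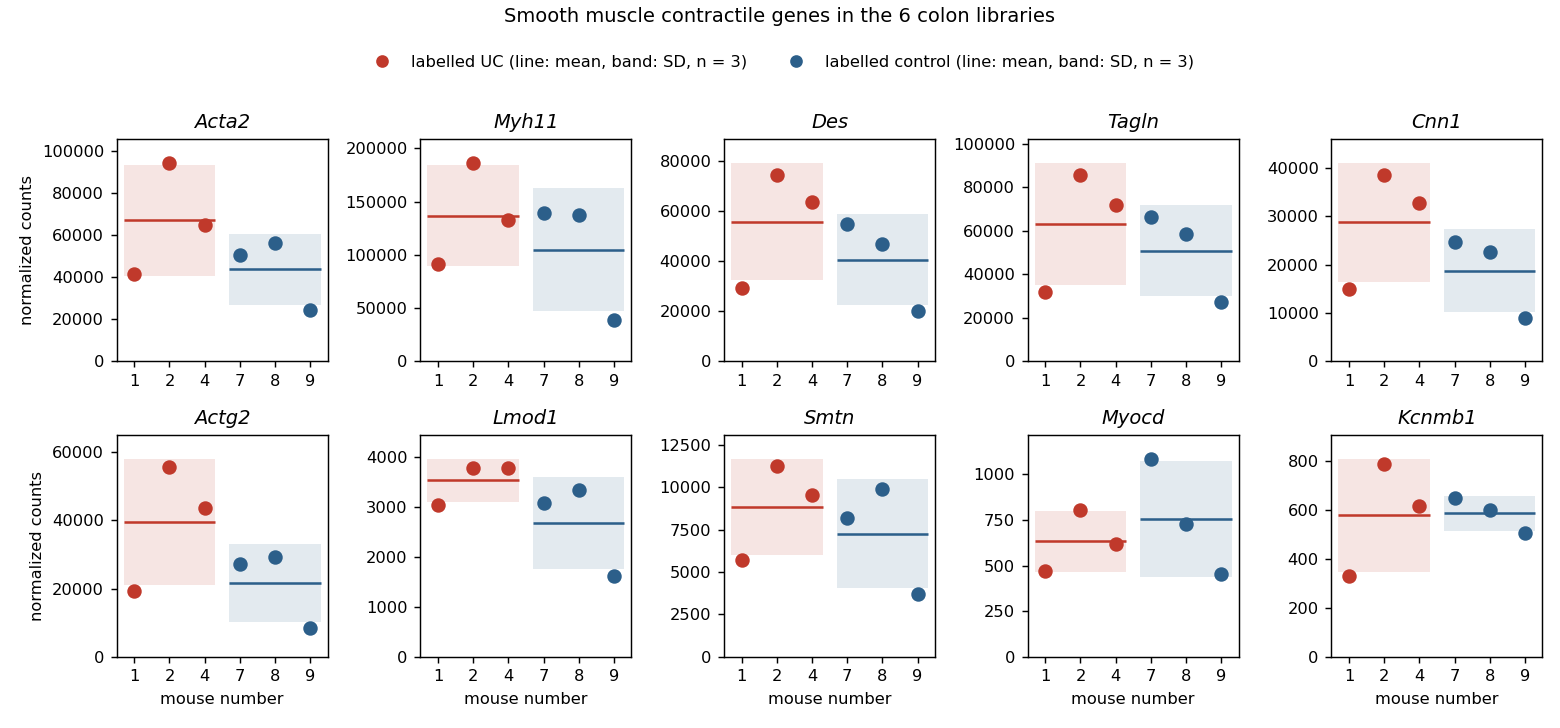
Normalized counts (y axis, from 0, a scale of its own in each panel) of the 10 members in each colon library (x axis, mouse number); points are libraries, red labelled UC and blue labelled control, lines are group means and bands 1 SD (n = 3). Mouse 9 is the lowest point in 9 of 10 panels and mouse 2 the highest in 9 of 10, and the colours overlap in every panel.

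The members differed widely in level. Divided by the length of their annotated exons, the mean over the 6 libraries was 28664 normalized counts per kilobase for Tagln, 25232 for Acta2, 19602 for Actg2, 15902 for Myh11, 12817 for Des and 8691 for Cnn1. It was 1838 per kilobase for Smtn and 786 for Lmod1, and then 139 for Kcnmb1 and 108 for Myocd. Between neighbours in this order of level per kilobase, the ranges over the libraries were apart only between Cnn1 and Smtn (a ratio of means of 4.73) and between Lmod1 and Kcnmb1 (5.65). All other neighbours overlapped, and the order was the same with the length of the longest coding transcript. The counting set no strand and some members share exon bases with a gene on the other strand, where reads of the pair cannot be told apart. These are 220 bases of Des with Gm15179, 1241 bases of Tagln with Gm48529 and 108 with Pcsk7, and 714 bases of Smtn with Gm11946 and 39 with Gm11947.

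The level of the whole group was summed up as the geometric mean of the 10 normalized counts. It was 8793, 19112 and 15455 in mice 1, 2 and 4, and 14058, 13514 and 5939 in mice 7, 8 and 9. The highest library, mouse 2, lay 3.22-fold above the lowest, mouse 9, and without mouse 9 the ratio was 2.17. Mouse 9 reached 0.419 of the mean of the other libraries. The members took 0.270%, 0.677% and 0.496% of all counts in mice 1, 2 and 4, and 0.429%, 0.391% and 0.173% in mice 7, 8 and 9.

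Mouse 9 held the lowest value in 9 of 10 members, beside 20.1% of all 22123 genes with a mean of at least 10 normalized counts. Mouse 2 held the highest in 9 of 10, beside 14.6% of those genes, and 8 of 10 members had both, beside 3.40%. On the log2 scale the SD over the 6 libraries was 0.65 for Acta2, 0.80 for Myh11, 0.71 for Des, 0.67 for Tagln, 0.77 for Cnn1 and 0.96 for Actg2. It was 0.61 for Smtn, 0.45 for Lmod1, 0.48 for Myocd and 0.43 for Kcnmb1, and the median over all those genes was 0.44. When the mean of the members in each library was subtracted, the SD fell to 0.12 for Des and Smtn, 0.14 for Tagln, 0.16 for Acta2 and 0.18 for Cnn1. It was 0.26 for Myh11, 0.28 for Lmod1 and 0.38 for Actg2, and it stayed at 0.40 for Myocd and 0.43 for Kcnmb1.

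The 8 structural members moved together from library to library. As a description over 6 points, which share depth and scaling, the r of log2 values with the mean of the other 9 members was 0.992 for Des, 0.989 for Cnn1, 0.977 for Smtn, 0.974 for Tagln, 0.969 for Actg2, 0.961 for Acta2, 0.959 for Myh11 and 0.893 for Lmod1. It was 0.718 for Myocd and 0.671 for Kcnmb1. Of 45 pairs of members, 26 had an r above 0.9, and all 26 were among the 28 pairs of structural members. The lowest pair was Lmod1 with Kcnmb1 (0.356), and Myocd with Kcnmb1 had 0.724.

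Ratios between some structural members varied little. Cnn1 to Des varied 1.17-fold over the 6 libraries and Tagln to Des 1.25-fold. Actg2 to Acta2, the enteric to the general smooth muscle actin, was 0.461, 0.590 and 0.671 in mice 1, 2 and 4 and 0.536, 0.517 and 0.344 in mice 7, 8 and 9, a 1.95-fold range with the lowest ratio in mouse 9. Lmod1 to Des varied 2.03-fold, Myocd to Des 2.29-fold and Kcnmb1 to Des 2.58-fold. Both Myocd to Des (0.0223) and Kcnmb1 to Des (0.0251) were highest in mouse 9, where Des was lowest. Myocd to Actg2 varied most among the ratios computed, 3.76-fold, and was also highest in mouse 9.

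The comparison the design sets is labelled UC against labelled control. The geometric mean of the members was 14453 ± 5232 (SD, n = 3) against 11170 ± 4539 (SD, n = 3). The difference of 0.40 on the log2 scale was smaller than the SD within either group, 0.58 for labelled UC and 0.70 for labelled control. Acta2 had 67055 ± 26385 against 43766 ± 16924 normalized counts, Actg2 39505 ± 18566 against 21535 ± 11384, and Des 55672 ± 23372 against 40560.5 ± 18035. The SDs were large beside the differences because mouse 1 was low among the libraries labelled UC and mouse 9 among those labelled control. Myh11 had 136852 ± 47463 against 104833 ± 57417, Tagln 63122 ± 27914 against 50845 ± 20707 and Cnn1 28764 ± 12310 against 18793 ± 8516. Smtn had 8840 ± 2858 against 7257 ± 3206 and Lmod1 3531 ± 429 against 2676 ± 923. The regulator and the channel subunit leaned the other way, with Myocd at 632 ± 169 against 756 ± 318 and Kcnmb1 at 579 ± 232 against 586 ± 72.9.

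In edgeR's quasi-likelihood test over 22238 genes, 0 of the 10 members were significantly differentially expressed (SDE, adjusted p at most 0.05 and absolute log2 fold change over 1), beside 0.00450% of all genes tested. At an unadjusted p under 0.05 the count was also 0 of 10, beside 1.41%, and it was 0 with DESeq2 and limma-voom too. The labelled groups were apart in 0 of 10 members, beside 5.66% of genes. The log2 fold change (log2FC, labelled UC minus labelled control) was largest for Actg2 at 0.85 (SE 0.57, 95% interval -0.52 to 2.22, edgeR adjusted p = 0.99995). It was 0.60 for Acta2 (-0.42 to 1.61), 0.59 for Cnn1 (-0.59 to 1.78), 0.44 for Des (-0.72 to 1.59) and 0.38 for Lmod1 (-0.34 to 1.10). For Myh11 it was 0.36 (-0.91 to 1.64), for Tagln 0.29 (-0.84 to 1.43) and for Smtn 0.26 (-0.76 to 1.28). Myocd had -0.28 (-1.21 to 0.66) and Kcnmb1 -0.03 (-0.89 to 0.82). The log2FC was above 0 in 8 of 10 members with a median of 0.37, beside 49.0% above 0 and a median of -0.01 over all genes tested. Those 8 are the structural members, which moved together from library to library, so they are not 8 separate results. These directions hold for the labels as deposited, which the inflammation markers contradict in mice 2, 4, 7 and 9. S100a8 (log2FC -1.49) and Lcn2 (-2.85) were below 0 and not SDE either (edgeR adjusted p = 0.99995 for each). Only 1 of 22238 genes was SDE, so nearly any 10 genes would show a count of 0. The comparison thus cannot tell whether DSS changed these genes. Each interval holds 0, and for 8 of 10 members its upper end lies above a log2FC of 1, so that a 2-fold rise lies within them. For Myocd the lower end of -1.21 leaves a 2-fold fall within its interval.

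**Figure D2:**
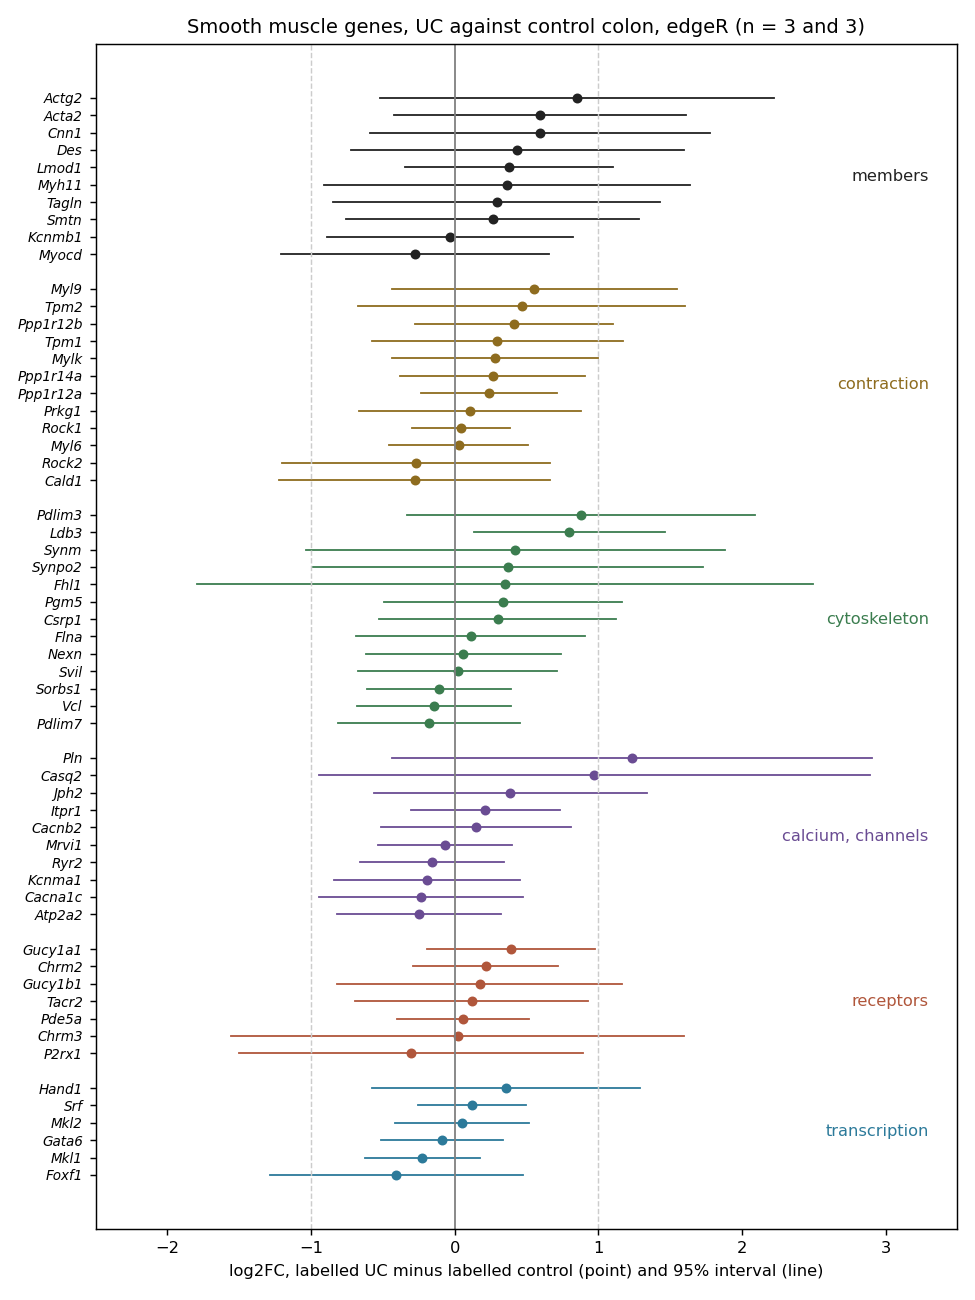
log2FC between the labelled colon groups (x axis, labelled UC minus labelled control) of the 10 members and 48 other smooth muscle genes in edgeR; points are estimates, lines 95% intervals, dashed lines a log2FC of -1 and 1. The intervals of all 10 members cross 0, from Actg2 at 0.85 to Myocd at -0.28. Among the 48 other genes only that of Ldb3 does not. Over all genes tested, 1.41% had an unadjusted p under 0.05.

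These values depended on single libraries. Without mouse 1, 6 of 10 members (Acta2, Des, Tagln, Cnn1, Actg2 and Lmod1) were higher in each remaining library labelled UC than in each labelled control, beside 10.3% of genes, and 0 of 10 were SDE. The median log2FC of the members was 0.05 without mouse 9, 0.12 without mouse 2, 0.33 without mouse 4, 0.58 without mouse 7 or mouse 8 and 0.60 without mouse 1. Mice 2, 4, 7 and 9 are those whose S100a8 and Lcn2 went against their label. If they are left out, as was decided after the values were seen, mouse 1 (labelled UC) and mouse 8 (labelled control) remain. This is 1 library per label and so no test. All 10 members were lower in mouse 1 than in mouse 8, beside 49.1% of genes. Since most members moved together from library to library, this is a difference between these mice and not 10 separate results.

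Other genes of smooth muscle were read in the same libraries from lists by role. Of the 48 such genes tested, 0 were SDE, beside 0.00450% of all genes tested. In edgeR 1 (Ldb3) had an unadjusted p under 0.05, beside 1.41% of all genes tested. The log2FC was above 0 in 34 and below 0 in 14, with a median of 0.12. Among 12 other genes of the contraction machinery, 10 were above 0 and the median was 0.25. Mylk, the light chain kinase itself, had 36554, 49750 and 41152 normalized counts in mice 1, 2 and 4 and 43153, 38449 and 21909 in mice 7, 8 and 9. Myl6, a myosin light chain that many cell types also make, had 40079, 44962 and 53524 against 48260, 48146 and 38042. Mylk followed the members with a 2.27-fold range, and Myl6 varied only 1.41-fold. In this list 10 of 12 genes were lowest in mouse 9 and 5 of 12 highest in mouse 2. Over all genes with a mean of at least 10 normalized counts the shares were 20.1% and 14.6%.

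Among 13 genes of the cytoskeleton and its attachment to the membrane, 10 had a log2FC above 0, with a median of 0.30. Flna, the actin crosslinker filamin A, had 79860, 133678 and 85928 normalized counts in mice 1, 2 and 4 and 121787, 89722 and 62573 in mice 7, 8 and 9. Csrp1, a LIM protein of smooth muscle, had 21542, 46149 and 38491 against 35320, 29327 and 20634. As with most members, both were highest in mouse 2 and lowest in mouse 9. In this list 6 of the 13 genes had that in common, beside 3.40% of all genes with a mean of at least 10 normalized counts. Ldb3, a Z-disc protein named here after its values were seen, had 961, 1462 and 938 against 565, 780 and 566, so that its groups were apart. Its log2FC was 0.80 with an unadjusted p of 0.0251, and its edgeR adjusted p was 0.99995. The groups were apart in 1 of the 13 genes here and 1 of the 10 of calcium handling and ion channels. They were apart in 0 genes of the contraction, receptor and transcription lists, beside 5.66% of all genes.

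The 10 genes of calcium handling and ion channels had a median log2FC of 0.04, with 5 above and 5 below 0. Atp2a2, the calcium pump of the sarcoplasmic reticulum, which other cells also use, had 29001, 22309 and 20356 normalized counts in mice 1, 2 and 4 and 30839, 20760 and 32856 in mice 7, 8 and 9. Its order was unlike that of the members, with mouse 9 highest. Itpr1, the receptor that releases calcium from those stores, had 5729, 8547 and 7575 against 6336, 7071 and 5245. Itpr1 was highest in mouse 2 and lowest in mouse 9. Pln (phospholamban) and Casq2 (calsequestrin), named after their values were seen, spanned far more than any member, 14.5-fold and 12.7-fold. Pln had 488, 625 and 463 against 315, 301 and 43.2. Its groups were apart, beside 5.66% of all genes (log2FC 1.23, edgeR adjusted p = 0.99995). Casq2 had 248, 1030 and 687 against 304, 601 and 81.0. Both were at their lowest in mouse 9, as were 7 of the 10 genes, beside 20.1% of all genes with a mean of at least 10 normalized counts.

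The 7 genes of receptors and the cyclic GMP pathway had a median log2FC of 0.12 with 6 above 0. Pde5a, the phosphodiesterase of cyclic GMP, had 18994, 19391 and 16783 normalized counts in mice 1, 2 and 4 and 21188, 15843 and 15281 in mice 7, 8 and 9. Chrm2, a muscarinic acetylcholine receptor, had 1663, 2503 and 1943 against 1970, 1632 and 1609. Neither spanned more than 1.56-fold. The 6 transcription factors had a median log2FC of -0.02, with 3 on each side of 0. Srf, the factor that binds the CArG box, had 4196, 5193 and 4170 against 4035, 4186 and 4108, a 1.29-fold range. Mkl2, a coactivator related to myocardin, had 6559, 7310 and 7321 against 6429, 8193 and 5571, a 1.47-fold range. Of these 6 genes 1 was lowest in mouse 9, near the 20.1% of all genes with a mean of at least 10 normalized counts.

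**Figure D3:**
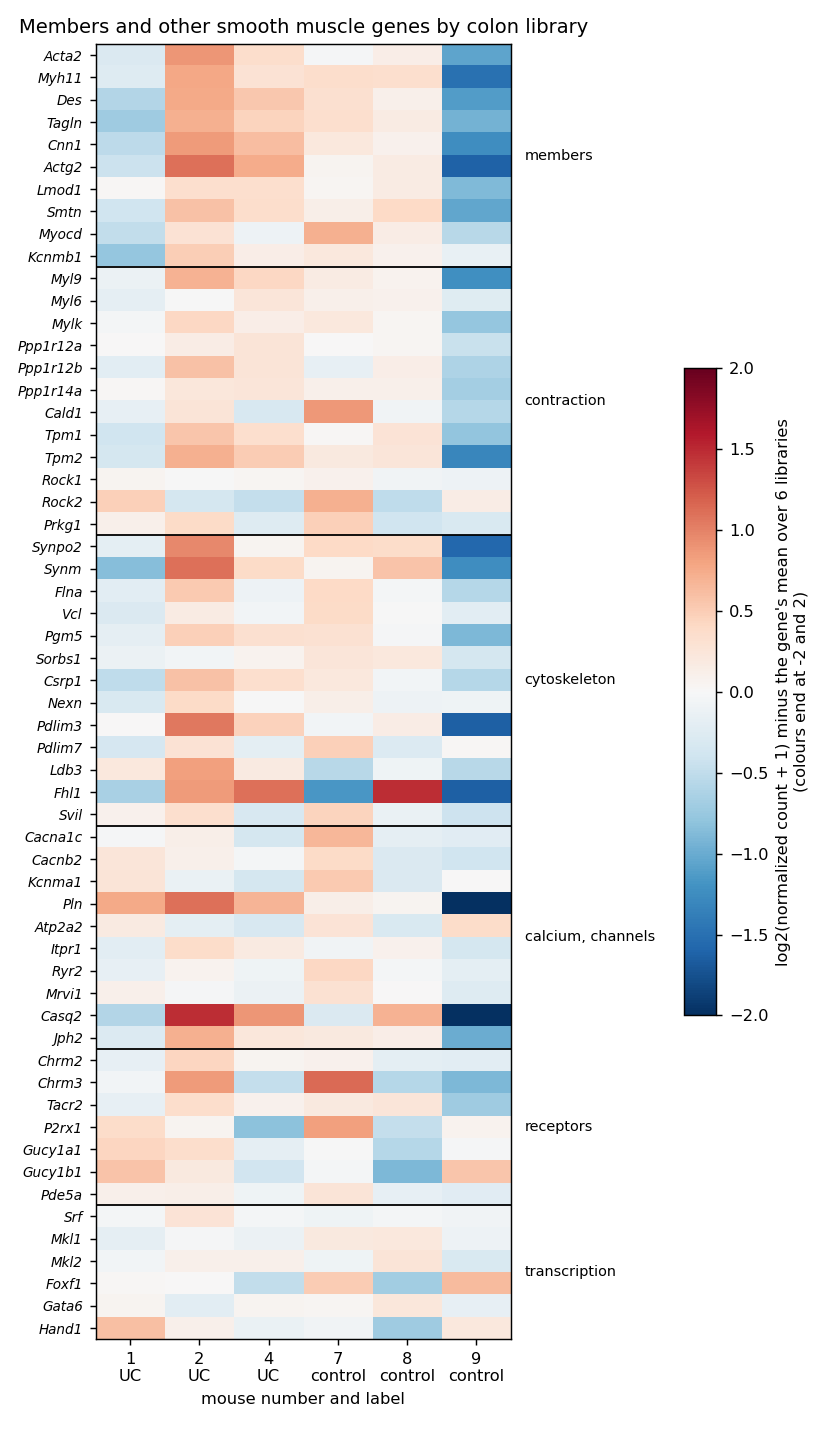
Colour gives log2(normalized count + 1) minus the mean of the gene over the 6 colon libraries (red above, blue below, colours end at -2 and 2) for the members and 48 other smooth muscle genes (rows, by list) in each library (columns, mouse number and label). Mouse 9 is blue and mouse 2 red through most of the members, which is seen less among the channels. Among the transcription factors 1 of 6 genes was lowest in mouse 9, near the 20.1% of all genes with a mean of at least 10 normalized counts.

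Genes of other cells of the wall were read to place the members beside them, as relative levels, that is, the geometric mean of a list in a library divided by its geometric mean over the 6 libraries. The members stood at 0.735, 1.60 and 1.29 in mice 1, 2 and 4 and at 1.18, 1.13 and 0.496 in mice 7, 8 and 9. Epithelial genes (12, such as Krt8 and Muc2) stood at 0.935, 0.881 and 1.10 against 1.34, 1.27 and 0.646. Mouse 9 was thus low in both, and its epithelial list was the lowest of the 6. The ratio of the geometric mean of the members to that of the epithelial list was 0.0983, 0.227 and 0.146 against 0.109, 0.111 and 0.0961, a 2.36-fold range. By this ratio mouse 2 was highest, while mice 1, 7, 8 and 9 lay between 0.0961 and 0.111. They were less close when the epithelium was read from Epcam and Cdh1 alone (0.0894 to 0.158) or when sums replaced geometric means (0.0917 to 0.183), and mouse 2 was again highest both times. Krt8, a keratin, had 313268, 378188 and 409913 normalized counts against 453160, 463694 and 303492. Muc2, the goblet cell mucin, had 1019389, 174587 and 151064 against 917317, 193612 and 242781. The epithelial genes did not move as a block, since Krt8 varied 1.53-fold and Muc2 6.75-fold.

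Fibroblasts and cells of vessel walls, which can also make some of the members, had another order. The 7 fibroblast genes stood at 1.05, 0.926 and 0.717 in mice 1, 2 and 4 and at 1.38, 0.695 and 1.50 in mice 7, 8 and 9, and all 7 had a log2FC below 0 (median -0.41, 0 SDE). Col3a1, a fibrillar collagen, had 65382, 56731 and 42703 normalized counts against 98827, 37254 and 126610, and Dcn, the proteoglycan decorin, had 29854, 17261 and 19427 against 27595, 16581 and 43960. Both were highest in mouse 9, where 9 of 10 members were lowest. The 6 genes of pericytes and vascular muscle stood at 1.28, 0.816 and 0.611 against 1.56, 0.631 and 1.59, and their summed counts ran from 14675 to 40544 in the labelled UC group and from 12751 to 41389 in the labelled control group. Rgs5, a pericyte marker, had 24447, 9963 and 7857 against 21456, 5741 and 10402, and Abcc9, a subunit of their potassium channel, had 8337, 3091 and 2371 against 8870, 2317 and 16547. By the relative levels the vascular list was highest in mouse 9 (1.59), where the members were lowest. None of its 6 genes was lowest in mouse 9, beside 20.1% of all genes with a mean of at least 10 normalized counts. The part of these cells in the levels of the members was not tested.

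Cells that lie within or between the muscle layers were read too. The 10 genes of enteric neurons stood at 1.76, 0.680 and 0.713 in mice 1, 2 and 4 and at 1.54, 0.343 and 2.22 in mice 7, 8 and 9. Vip, a relaxant neuropeptide, had 4306, 2026 and 2115 normalized counts against 3471, 929 and 12668, and Nos1, the neuronal nitric oxide synthase, had 3096, 1213 and 919 against 3287, 735 and 3727. Mouse 9 was thus highest in the neuronal list and lowest in the members. Of the 10 neuronal genes 0 were lowest there, beside 20.1% of all genes with a mean of at least 10 normalized counts. The 5 glial genes stood at 1.42, 0.780 and 0.673 against 1.60, 0.685 and 1.23. Gfap, the glial filament protein, had 1472, 298 and 228 against 3326, 229 and 1807, whereas Erbb3, which the epithelium also expresses, had 67444, 38565 and 54956 against 55606, 64050 and 33719. The 3 genes of interstitial cells of Cajal, the pacemaker cells of the gut, stood at 0.870, 1.30 and 1.32 against 0.786, 1.22 and 0.696. Ano1, their chloride channel, which epithelium can also make, had 3047, 22362 and 30046 against 3751, 32554 and 6859, and Kit, their receptor tyrosine kinase, had 5939, 3557 and 3210 against 3593, 2921 and 1630. Ano1 and Kit were thus not high in the same libraries.

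The inflammatory list (5 genes) stood at 8.74, 0.0710 and 0.0835 in mice 1, 2 and 4 and at 3.73, 0.163 and 31.7 in mice 7, 8 and 9, and the leukocyte list (5 genes) at 0.873, 0.567 and 0.863 against 2.04, 0.451 and 2.55. S100a9, the partner of S100a8, had 5434, 16.5 and 31.3 normalized counts against 2137, 130 and 18061. Ptprc, the pan-leukocyte antigen CD45, had 4048, 1945 and 2720 against 7451, 1185 and 7528, and Csf1r, the macrophage growth factor receptor, had 3639, 2058 and 2154 against 5039, 1664 and 5593. Mouse 9, the lowest of all in the members, was the highest in both lists, and mouse 1, the next lowest in the members, was the next highest in the inflammatory list. Mouse 7 was above mouse 8 in both lists and in the geometric mean of the members, but below mouse 8 when the members were summed up by their median or without Myocd and Kcnmb1. No correlation is given, since the inflammatory genes part the 6 libraries into separate clusters, and the part of inflammation in the levels of the members was not tested.

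**Figure D4:**
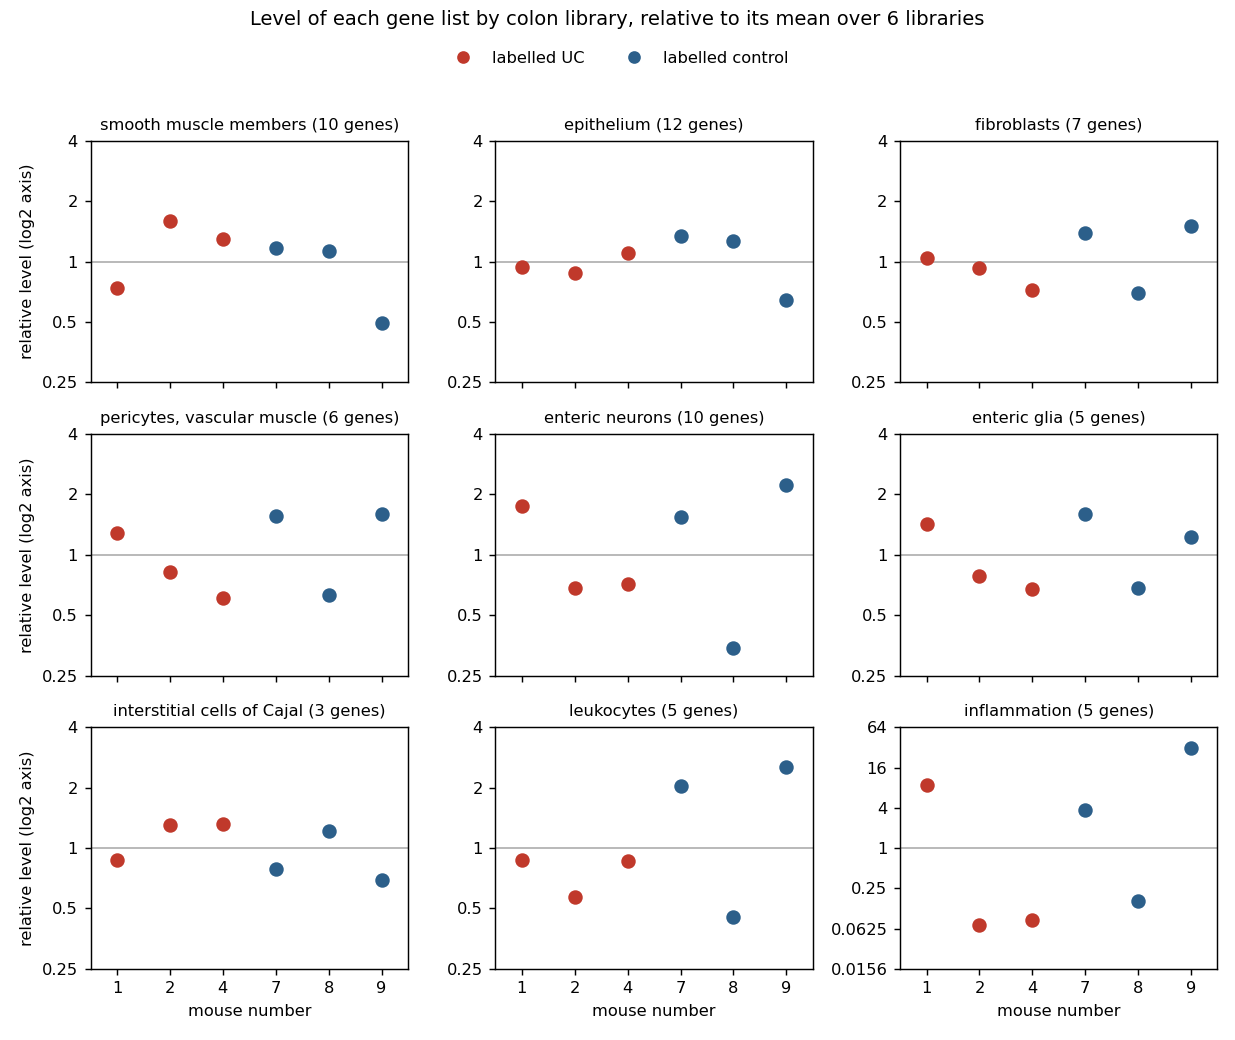
Relative level (y axis, log2 spacing, a wider axis in the inflammation panel) of the members and of 8 lists of other cell types in each colon library (x axis, mouse number); points are libraries, red labelled UC and blue labelled control, and the grey line is the mean over libraries. The members are lowest in mouse 9 (0.496), where the neuronal (2.22), leukocyte (2.55) and inflammation (31.7) lists are highest.

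Genes of striated muscle were read as well, and their myosins Myh1, Myh2 and Myh6 are named after their values were seen. Of 8 skeletal muscle genes in the table, the myosin Myh1 had at most 3.78 normalized counts and was at 0 in mice 1, 7 and 9, and Acta1, the skeletal alpha-actin, had 1111, 411 and 540 in mice 1, 2 and 4 and 1146, 681 and 779 in mice 7, 8 and 9. Ckm, the muscle creatine kinase, had 649, 897 and 714 against 754, 691 and 66.6, so that only mouse 9 was low. The myosin Myh2 had 239 in mouse 2, 209 in mouse 4 and 31.5 in mouse 8, against at most 2.84 in mice 1, 7 and 9. Of the cardiac genes, Tnnt2, a troponin, had 669, 1377 and 1337 against 690, 1647 and 184, and Myl7, an atrial light chain, had 524, 9.58 and 30.5 against 287, 13.9 and 204. Myh6, the cardiac myosin, had at most 18.9 normalized counts in any library.

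Blood, which holds no smooth muscle, gave the background of the counting. The 6 blood libraries held 80867247 to 142536804 counts, of which 245 to 761 fell in the 10 members, against 149329 to 633078 in the colon. Lmod1 and Myocd had 0 counts in all 6 blood libraries. The counts come from transcript coverage and are no tally of reads, so the limit set for 0 (3 counts per library) is nominal. In CPM, the count scaled to the library total, the lowest colon library lay 562-fold (Lmod1) and 143-fold (Myocd) above this limit. Smtn was the exception, with 652, 157 and 193 counts in mice 1, 2 and 4 and 294, 212 and 267 in mice 7, 8 and 9. Its 2.44 ± 1.18 CPM (SD, n = 6) in blood compare with 93.6 ± 33.1 (SD, n = 6) in the colon, and its lowest colon library lay 10.4-fold above its highest blood library. Acta2 had 15 to 145 blood counts, 0.541 ± 0.523 CPM (SD, n = 6) against 648 ± 290 (SD, n = 6) in the colon, and a gap of 201-fold between those libraries. The other 6 members had at most 46 counts in a blood library and at least 349 in a colon library. Libraries of the tissues differed in the removal of globin RNA, and 7SL RNA took 35.9% to 65.4% of blood counts, which lowers the blood CPM of all other genes. With 7SL left out of the totals, a choice made after the data were seen, the gap was 4.88-fold for Smtn and 136-fold for Acta2. The lowest colon library then lay 268-fold (Lmod1) and 68.0-fold (Myocd) above the nominal limit.

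**Figure D5:**
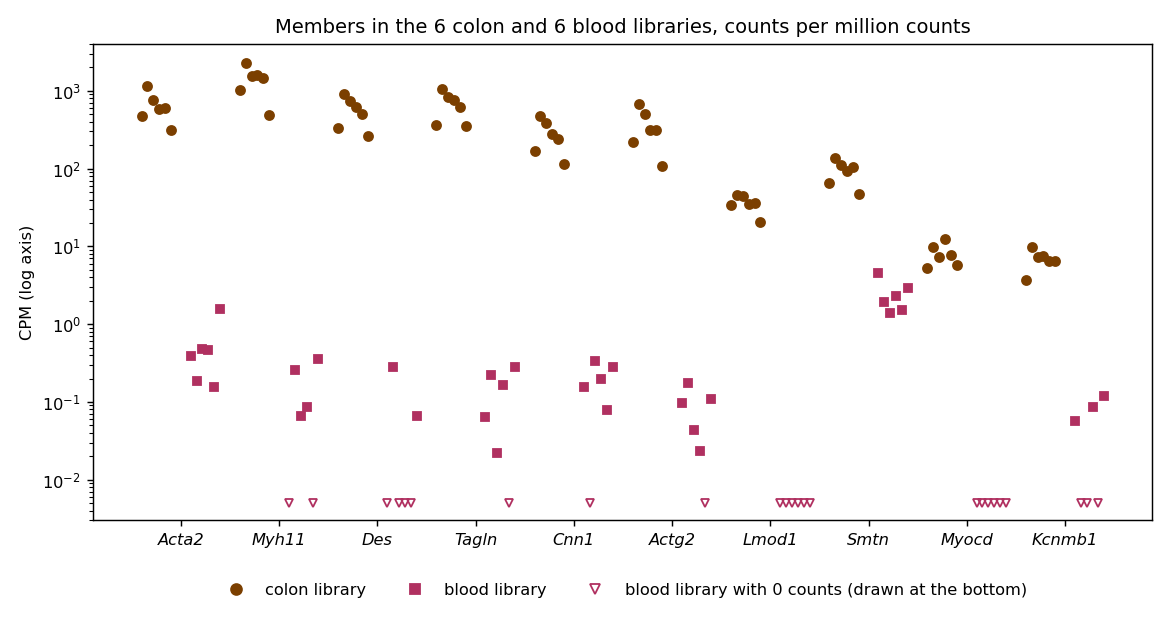
Count scaled to the library total (CPM, y axis, log scale) of the 10 members (x axis) in the 6 colon libraries (brown circles) and 6 blood libraries (purple squares); open triangles at the bottom stand for blood libraries with 0 counts. The tissues do not overlap in any member, and the gap is narrowest for Smtn at 10.4-fold (4.88-fold with 7SL left out of the totals).

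Outside the members and lists, the 8 genes whose levels were most like the mean of the members over the 6 colon libraries were named, out of 15728 genes with a mean of at least 100 normalized counts. They were Tent5b (r = 0.995), Pdlim4 (0.994), Slc29a3 (0.985), Cuedc1 (0.983), Flnc (0.978), Plekha6 (0.975), Cav1 (0.975) and Cap2 (0.974), where r is Pearson's over 6 points that share depth and scaling. Flnc, the muscle filamin C, had 5637, 21605 and 15340 normalized counts in mice 1, 2 and 4 and 14830, 9876 and 4109 in mice 7, 8 and 9, a 5.26-fold range like that of Myh11. Cav1, the scaffold protein of caveolae, had 1020, 2175 and 1615 against 1478, 1618 and 889. Tent5b, a poly(A) polymerase of the TENT family, had 251, 738 and 494 against 501, 474 and 132. Slc29a3, a nucleoside transporter, had a high r with a range of only 1.24-fold. An r of at least 0.9 was found for 105 genes (0.668%) and an r of -0.9 or below for 103 (0.655%), so that likeness in this order of 6 libraries was about as frequent as its reverse.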

How the data were processed

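Libraries of total RNA came from 6 colons and 6 blood samples. Per the labels and the study's methods, the authors removed ribosomal RNA (in blood also globin RNA), mapped reads to GRCm38 with STAR 2.5.2a and quantified Ensembl 92 genes with Stringtie 1.3.4c, setting no strand. The deposited counts are whole numbers derived from transcript coverage, not a tally of reads. In the deposited normalized counts, a signal scale, the authors divided each count by the DESeq2 size factor of its library, per tissue. Levels within the colon use this scale, and colon is set beside blood as CPM. Limits from counts are nominal, since the counts are no tally of reads, and cover counting error at most.

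Groups follow the disease and tissue characteristics; another field names the opposite tissue in every sample, against the counts of gut genes. Tests ran in edgeR 4.0.16 under R 4.3.3 (TMM, filterByExpr, quasi-likelihood, Benjamini-Hochberg over all genes, no covariates). Alternatives were RLE or library size scaling, other filters, DESeq2 1.42.0, limma-voom (limma 3.58.1) and each library left out. Coordinates, exon lengths and overlaps are from GENCODE vM21 (GRCm38), which held 53706 of 53801 identifiers. The r values among members use log2 of the normalized count, and those of the most alike genes use log2(normalized count + 1).

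The members and lists were chosen with earlier results of these data known. Of 115 list genes, 113 were in the colon table (Myh4 and Nppa were not). Genes named are the members, the 2 most abundant of each list, SDE list genes, the 8 most alike, S100a8 and Lcn2, besides those said to be named after their values were seen. The actin windows and counts of genes by highest and lowest library were chosen after the data were seen.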

Additional observations from a re-analysis of the deposited data

How the results depend on the processing

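The counts of members that were SDE or had an unadjusted p under 0.05 were 0 under every alternative run (RLE and library size scaling, other filters, DESeq2, limma-voom, only genes of the normalized table, each library left out), with a lowest adjusted p of 0.660. Of 130 alternative values of the member log2FC, 123 kept their sign. Of the 7 that reversed, 1 was Kcnmb1 with library size only (0.018), and 6 came from leaving out a library, where the log2FC ran from -0.034 to 0.62 for Myh11, -0.011 to 0.61 for Tagln, -0.054 to 0.57 for Smtn (each below 0 without mouse 9), -0.55 to 0.083 for Myocd (above 0 without mouse 7) and -0.32 to 0.25 for Kcnmb1 (above 0 without mouse 1 or mouse 7). The median log2FC of the members ran from 0.05 to 0.60. The count of members whose labelled groups were apart ran from 0 to 6, with 6 without mouse 1.

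The highest library lay 5.40-fold above the lowest with the median of the members in place of the geometric mean, and from 2.17-fold (without mouse 9) to 3.22-fold when libraries were left out. The ratio of members to epithelium spanned 4.11-fold with sums in place of geometric means. Of the 8 most alike genes, 8 were shared at a pseudocount of 10, and 1 (Flnc) had a Spearman rho of 1. With 1 mismatch allowed, 1 member promoter held a CArG box. The cause of these shifts was not tested. Over all genes, DESeq2 called 6 SDE genes and limma-voom 0, beside 1 in edgeR (the smallest exact permutation p for 3 against 3 is 0.1). The narrowest gap between colon and blood, that of Smtn, was 4.88-fold with 7SL left out of the totals, an alternative added after the data were seen. No paired analysis was possible because labelled UC and labelled control share no mouse number, and colon against blood, where the numbers are shared, was given with no test.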
